A study of Chlamydomonas reinhardtii with 12 samples.

Results

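The genes described here are 10 nuclear genes of the green alga Chlamydomonas reinhardtii for photosynthetic electron transport and the chloroplast ATP synthase. They were chosen by gene ID from the 17741 IDs of the deposited tables, with names assigned to the IDs beforehand, since the tables hold IDs alone. PETC (Cre11.g467689), PETM (Cre12.g546150) and PETO (Cre12.g558900) belong to or associate with the cytochrome b6f complex, and PETF (Cre14.g626700) and FNR1 (Cre11.g476750) are ferredoxin and ferredoxin-NADP reductase. ATPC (Cre06.g259900), ATPD (Cre11.g467569) and ATPG (Cre11.g481450) are subunits of the ATP synthase, and PGR5 (Cre05.g242400) and PGRL1 (Cre07.g340200) are proteins of cyclic electron flow. All 10 passed the filter on low counts, which left 15286 genes for testing.

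The cytochrome b6f complex sits between the photosystems, takes electrons from plastoquinol and pumps protons into the thylakoid lumen. Ferredoxin receives electrons at photosystem I and passes them to the reductase, which makes NADPH, or, in cyclic flow, back to the plastoquinone pool. The proton gradient drives the ATP synthase, whose catalytic head lies on the stromal side of the membrane. In this alga the b6f complex is known to be lost from thylakoids when nitrogen runs out in medium with acetate. Other subunits of these complexes, several of them encoded in the chloroplast, are not analysed here.

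Polyadenylated RNA was sequenced from 4 groups with 3 libraries each, 12 in all. The groups were vip1-1 under nutritional stress, vip1-1 control, wild-type under nutritional stress and wild-type control, where vip1-1 is a mutant strain that the series text calls deficient in inositol pyrophosphates, signalling molecules made from phosphorylated inositol. Every sample carries the background label CC-1690. All cultures grew in liquid TAP medium, which contains acetate, at 25 °C under 50 µmol photons per square metre and second, stress cultures for 14 days and control cultures for 24 h. Culture age and nutrient state therefore changed together and cannot be told apart. A single mutant strain stands for the genotype, and the labels call the libraries biological replicates without saying whether they came from separate cultures, so p-values measure the spread between these libraries. The comparisons ask how far inositol pyrophosphates take part in the response to nutrient limitation.

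Library totals ran from 9749837 to 28833327 counts. A set of 6 very abundant features, correlated with each other across libraries, held between 0.561% and 71.0% of a library's counts. The share was highest in wild-type control replicate 1 and lowest in vip1-1 control replicate 3. Because of this, levels are given as scaled FPKM, the authors' deposited FPKM (fragments per kilobase of transcript, scaled to the library total) divided by the TMM factor of the library, which sets libraries on a common scale. These factors ran from 0.345 to 1.5. The 10 genes had at least 188 counts in every library.

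Under nutritional stress these genes took a smaller share of the transcripts in both genotypes, and each fell in both except PGR5, which did not pass the test in wild-type. Of the counts outside the 6 abundant features, the 10 genes took 0.249% ± 0.0290 in vip1-1 stress libraries and 1.22% ± 0.0547 in vip1-1 controls (SD, n = 3 each). In wild-type they took 0.260% ± 0.0469 under stress and 1.17% ± 0.0550 in controls (SD, n = 3 each). No stress library overlapped a control library in this share, with a range of 0.208% to 0.299% under stress and 1.13% to 1.25% in controls over both genotypes. In bulk RNA, fewer cells with active photosynthesis and less of these transcripts in every cell cannot be told apart.

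All 10 genes were called lower in vip1-1 stress than in vip1-1 control (edgeR's quasi-likelihood test, Benjamini-Hochberg adjusted p under 0.05), where 11% of all tested genes were called lower and 12.2% higher. In wild-type 9 of the 10 were called lower under stress, against 12.1% of all tested genes called lower and 13.9% higher. PGR5 was the exception. The median log2 fold change of the 10 genes was -2.47 in vip1-1 and -2.60 in wild-type, while the medians over all tested genes were 0.09 and 0.19. The groups did not overlap for the 10 genes in vip1-1 and for 9 in wild-type, in each case with every stress library below every control library. That was so for 24.5% of all tested genes in vip1-1 and 16.8% in wild-type.

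**Figure D1:**
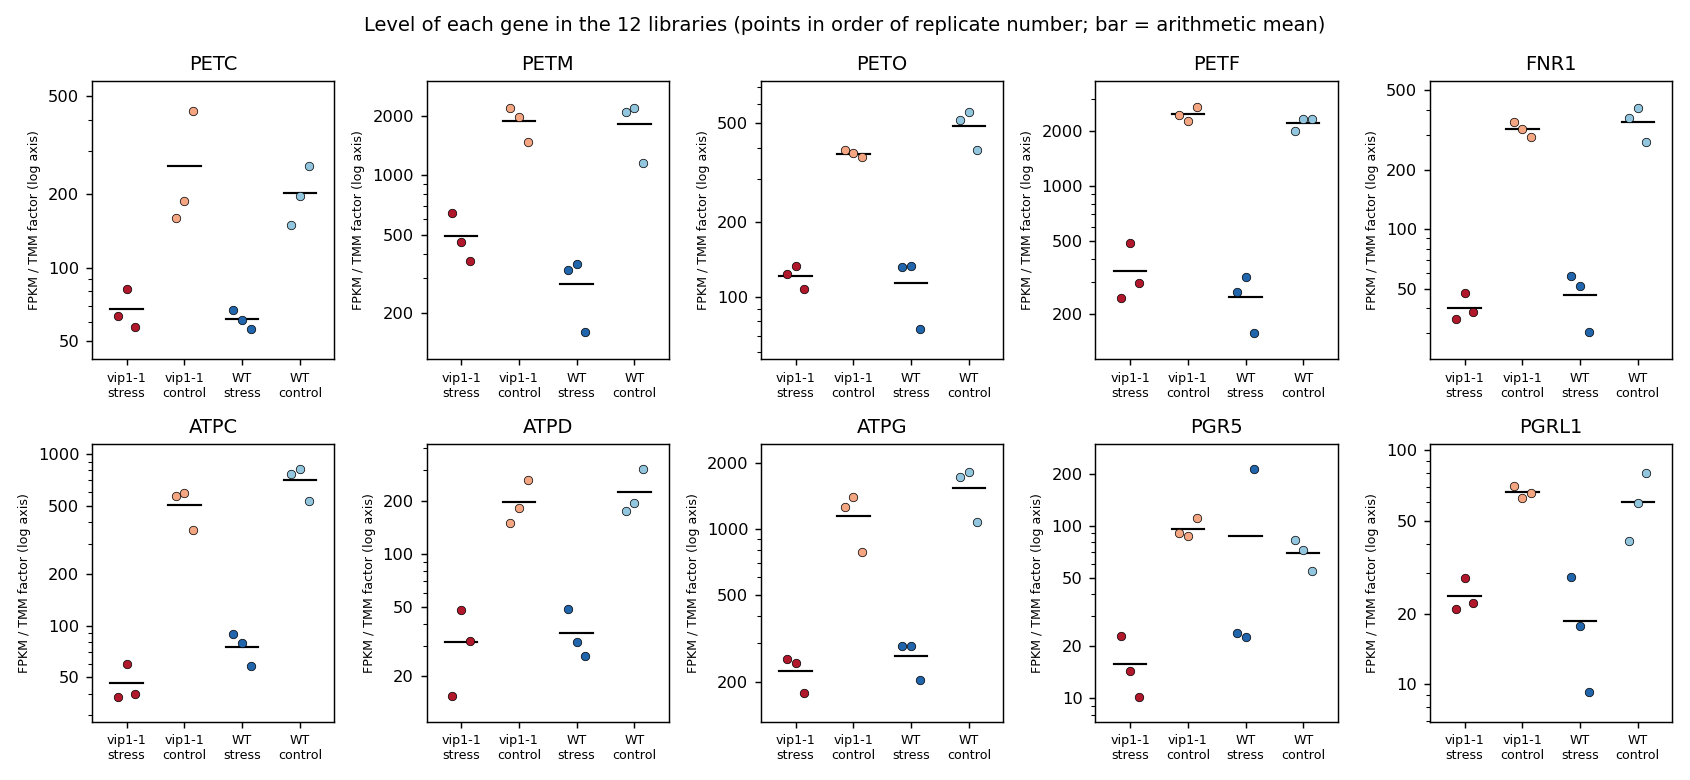
Level of each of the 10 genes (deposited FPKM divided by the TMM factor, log axis) in every library, by group, with points in order of replicate number and a bar at the mean of 3 libraries. Stress libraries sit below control libraries of the same genotype in every panel but PGR5, where wild-type stress replicate 3 reaches 213.

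The genes of the cytochrome b6f complex fell 3.10- to 6.41-fold under stress. PETC, the Rieske iron-sulfur protein that takes electrons from plastoquinol, stood at 63.3, 81.9 and 57.3 scaled FPKM in vip1-1 stress, against 159, 188 and 434 in vip1-1 control. In wild-type PETC stood at 67.4, 61.2 and 56.3 under stress and at 149, 195 and 260.3 in control. The stress libraries of both genotypes lie in a narrow band, and the spread is in the controls, where replicate 3 was the highest of each genotype. PETC was 3.84-fold lower under stress in vip1-1 (log2 fold change -1.94, SE 0.37, edgeR adjusted p 0.0034) and 3.26-fold lower in wild-type (-1.71, SE 0.37, edgeR adjusted p 0.0062). Without vip1-1 control replicate 3 its log2 fold change in vip1-1 was -1.36 (edgeR adjusted p 0.0055). The PETC calls were lost with library totals alone, at an edgeR adjusted p of 0.076 in vip1-1 and 0.098 in wild-type, and in wild-type also with limma on FPKM (adjusted p 0.11).

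PETM, a small membrane-spanning subunit of the complex, was among the most abundant of the 10 genes. Its scaled FPKM was 641, 458 and 368 in vip1-1 stress and 2179, 1959.6 and 1462 in vip1-1 control. The wild-type values were 330.4, 353 and 160.5 under stress and 2079, 2185 and 1152 in control. Stress and control stayed apart in both genotypes, and under stress every vip1-1 library was above every wild-type library. PETM was 3.81-fold lower under stress in vip1-1 (log2 fold change -1.93, SE 0.37, edgeR adjusted p 0.0033) and 6.41-fold lower in wild-type (-2.68, SE 0.38, edgeR adjusted p 0.00053). The call in vip1-1 was lost with library totals alone (edgeR adjusted p 0.061).

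PETO, a phosphoprotein bound to the complex and known for a part in the regulation of cyclic electron flow in this alga, ranged from 108 to 133 scaled FPKM in vip1-1 stress, against 366 to 389.7 in vip1-1 control. In wild-type the ranges were 74.8 to 134 under stress and 393 to 558 in control. It was 3.10-fold lower under stress in vip1-1 (edgeR adjusted p 0.0010) and 4.30-fold lower in wild-type (edgeR adjusted p 0.00022), and the call in vip1-1 was lost with library totals alone (edgeR adjusted p 0.088).

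The genes of the carriers on the stromal side of photosystem I fell 7.18- to 8.97-fold. PETF, the main photosynthetic ferredoxin, had 245, 489.5 and 294 scaled FPKM in vip1-1 stress and 2432, 2264 and 2709 in vip1-1 control. In wild-type it had 262, 319 and 157 under stress and 1986, 2317 and 2333 in control. The control libraries were close together in both genotypes, at a coefficient of variation of 9.12% in vip1-1 and 8.85% in wild-type, and every stress library was far below them. The fall was 7.18-fold in vip1-1 (log2 fold change -2.84, SE 0.33, edgeR adjusted p 0.00016) and 8.97-fold in wild-type (-3.17, SE 0.33, edgeR adjusted p 7.8e-05). PETF was the most abundant of the 10 genes in both control groups, and under stress PETM had the highest mean in both genotypes.

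FNR1, which uses electrons from ferredoxin to reduce NADP, ranged from 35.3 to 47.7 scaled FPKM in vip1-1 stress, against 291 to 345 in vip1-1 control. The wild-type ranges were 30.4 to 58.6 under stress and 275 to 408 in control. FNR1 was 7.87-fold lower under stress in vip1-1 (log2 fold change -2.98, SE 0.29, edgeR adjusted p 5.5e-05) and 7.42-fold lower in wild-type (-2.89, SE 0.28, edgeR adjusted p 5.2e-05).

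The ATP synthase held the gene with the lowest log2 fold change of the 10 in both genotypes. ATPC, the gamma subunit that forms the rotating shaft and carries the redox switch of the enzyme, had 38.6, 60.1 and 40.0 scaled FPKM in vip1-1 stress, against 567, 592 and 358 in vip1-1 control. In wild-type it had 89.5, 78.7 and 58.1 under stress and 765, 819 and 533 in control. The groups were far apart, and control replicate 3 was the lowest control in each genotype. ATPC fell 10.9-fold in vip1-1 (log2 fold change -3.45, SE 0.32, edgeR adjusted p 4.3e-05) and 9.33-fold in wild-type (-3.22, SE 0.31, edgeR adjusted p 4.8e-05). From the lowest log2 fold change upward it was gene number 263 of 15286 in vip1-1 and 504 in wild-type.

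ATPG, a subunit of the peripheral stalk that holds the catalytic head, had 253, 243 and 177 scaled FPKM in vip1-1 stress and 1249, 1395 and 786 in vip1-1 control. The wild-type libraries gave 293, 292 and 205 under stress and 1723, 1807 and 1075 in control. It fell 5.08-fold in vip1-1 (log2 fold change -2.35, SE 0.30, edgeR adjusted p 0.00033) and 5.83-fold in wild-type (-2.54, SE 0.31, edgeR adjusted p 0.00020). This fall was smaller than that of ATPC in both genotypes. ATPD, the delta subunit that joins the stalk to the head, ranged from 15.4 to 47.6 in vip1-1 stress and from 149 to 264 in vip1-1 control. In wild-type ATPD ranged from 26.3 to 48.2 under stress and from 175 to 303 in control. It was 6.24-fold lower under stress in vip1-1 (edgeR adjusted p 0.0013) and 6.32-fold lower in wild-type (edgeR adjusted p 0.0012).

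PGR5 and PGRL1, which act together in cyclic electron flow around photosystem I, were the least abundant of the 10 genes in control cultures. PGRL1, a thylakoid membrane protein, had 21.0, 28.5 and 22.3 scaled FPKM in vip1-1 stress and 70.6, 62.6 and 65.7 in vip1-1 control. In wild-type it had 28.8, 17.7 and 9.26 under stress and 41.1, 59.5 and 79.9 in control. The vip1-1 groups were tight, whereas each wild-type group was spread widely without overlapping the other. PGRL1 fell 2.76-fold in vip1-1 (log2 fold change -1.47, SE 0.37, edgeR adjusted p 0.014) and 3.23-fold in wild-type (-1.69, SE 0.37, edgeR adjusted p 0.0067). Both calls were lost with scaling by library totals alone, with edgeR adjusted p of 0.197 in vip1-1 and 0.128 in wild-type, and with limma on FPKM (adjusted p 0.081 in vip1-1 and 0.093 in wild-type). The call was also lost in vip1-1 without vip1-1 stress replicate 1 (edgeR adjusted p 0.056) and in wild-type when only the groups compared were fitted (edgeR adjusted p 0.0501).

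PGR5, a small stromal protein, behaved differently in a single library. It had 23.1, 14.4 and 10.2 scaled FPKM in vip1-1 stress, against 90.1, 86.9 and 111 in vip1-1 control. In wild-type it had 23.9, 22.5 and 213 under stress, against 82.0, 72.3 and 54.8 in control. All vip1-1 stress libraries and wild-type stress replicates 1 and 2 lie below every control, while wild-type stress replicate 3 lies above them all, at 8.92 times the next library of its group. PGR5 fell 6.02-fold in vip1-1 (log2 fold change -2.59, SE 0.75, edgeR adjusted p 0.028), a call that was lost when any 1 of the 6 vip1-1 libraries was left out (edgeR adjusted p 0.051 to 0.097). This call was also lost with library totals alone, and DESeq2 gave no adjusted p for PGR5 there. In wild-type its log2 fold change was 0.32 (SE 0.71, edgeR adjusted p 0.78).

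Without wild-type stress replicate 3 the log2 fold change of PGR5 in wild-type was -1.68, with an edgeR adjusted p of 0.0062. All 10 genes were then called lower there too, against 1902 of 15566 tested genes. Leaving that library out also moved the edgeR adjusted p in vip1-1 to 0.00018, since the fit shares 1 estimate of the spread over the groups. That library held more jumps of this kind than any other. At a level of at least 10 CPM, the count scaled to library size, 121 of 15286 tested genes were at least 8-fold above both other libraries of their group in wild-type stress replicate 3, against 0 to 38 genes in the other 11 libraries. Why PGR5 was high in it was not tested.

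**Figure D2:**
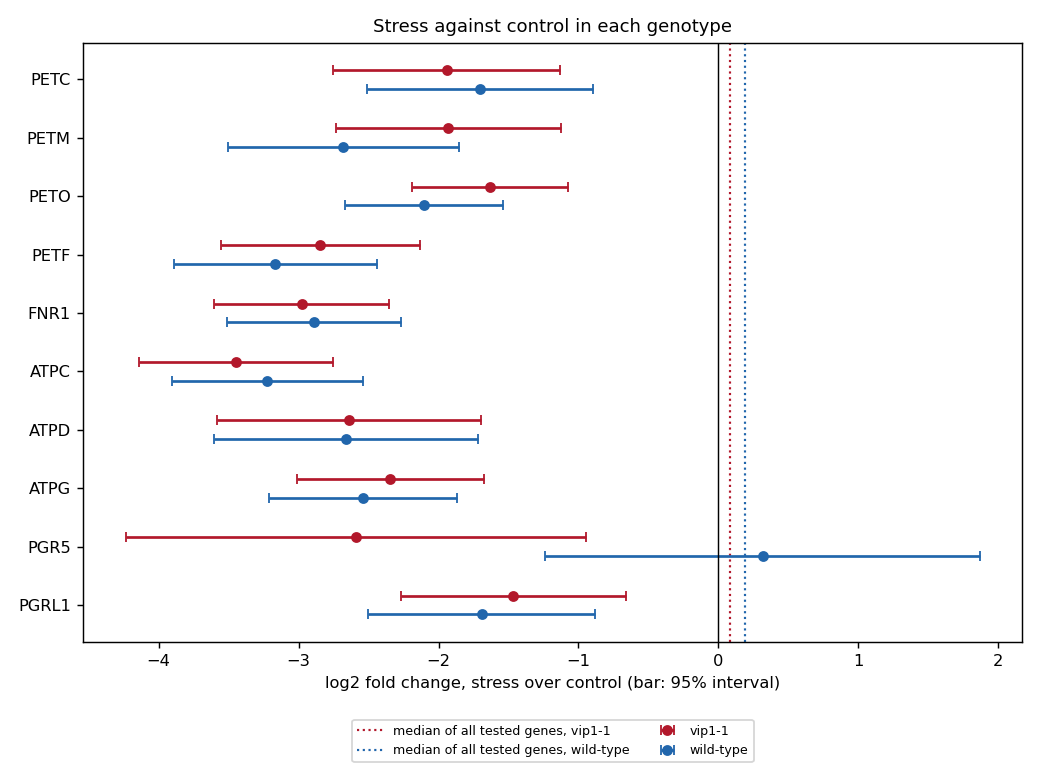
Log2 fold change of stress over control for each gene (x axis) in vip1-1 and in wild-type, with 95% intervals from the edgeR fit and dotted lines at the median of all tested genes. All intervals lie below 0 except that of PGR5 in wild-type, which runs from -1.24 to 1.87.

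Within a library, the ratio of one gene to another does not depend on how libraries are scaled. For 5 pairs of genes the ratio of deposited FPKM was tested for an effect of stress, exchanging conditions within genotype, and of genotype, exchanging genotypes within condition (exact two-sided permutation tests with 400 arrangements, Benjamini-Hochberg adjustment over 10 tests). A p of 0.005 is the smallest these arrangements can give, and a lone p of that size adjusts to 0.05.

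The ratio of ATPG to ATPC was 5.01 ± 1.36 in vip1-1 stress and 2.25 ± 0.0928 in vip1-1 control (SD, n = 3 each). In wild-type it was 3.50 ± 0.218 under stress and 2.16 ± 0.124 in control (SD, n = 3 each). Every stress library was above every control library of either genotype, the lowest at 3.27 under stress and the highest at 2.36 in control. The ratio was 1.88 times higher under stress (exact permutation p = 0.005, adjusted p = 0.05), which reaches but does not pass the threshold. Between genotypes it was 1.21 times higher in vip1-1 (exact permutation p = 0.03, adjusted p = 0.1), with a log2 difference of 0.49 under stress and 0.06 in control. Under stress all vip1-1 libraries, from 4.04 to 6.56, were above all wild-type libraries, from 3.27 to 3.71.

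FNR1 relative to PETF was 0.124 ± 0.0239 in vip1-1 stress and 0.193 ± 0.0305 in wild-type stress (SD, n = 3 each). In control the ratio was 0.130 ± 0.0200 in vip1-1 and 0.159 ± 0.0357 in wild-type (SD, n = 3 each). It was 1.38 times lower in vip1-1 (exact permutation p = 0.025, adjusted p = 0.1) and did not pass the threshold. The stress libraries of the genotypes did not overlap, with a highest ratio of 0.144 in vip1-1 and a lowest of 0.162 in wild-type. Stress moved it by a factor of 1.08 (exact permutation p = 0.535, adjusted p = 0.669).

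The other pairs did not pass. ATPD over ATPC was 1.54 times higher under stress (exact permutation p = 0.11, adjusted p = 0.275), with a log2 difference of 0.70 in vip1-1 and 0.55 in wild-type. PETO over PETC differed under stress by 0.17 on the log2 scale in vip1-1 and by -0.46 in wild-type, and over both by -0.15 (exact permutation p = 0.665, adjusted p = 0.739). Without both replicate 3 controls the stress difference was 1.07 for ATPD over ATPC (exact permutation p = 0.02) and -0.56 for PETO over PETC (exact permutation p = 0.01, the smallest possible there), each at an adjusted p of 0.05, which does not pass. PGR5 over PGRL1 ranged from 0.458 to 1.10 in vip1-1 stress and from 0.830 to 23.0 in wild-type stress, with the top value again from wild-type stress replicate 3.

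**Figure D3:**
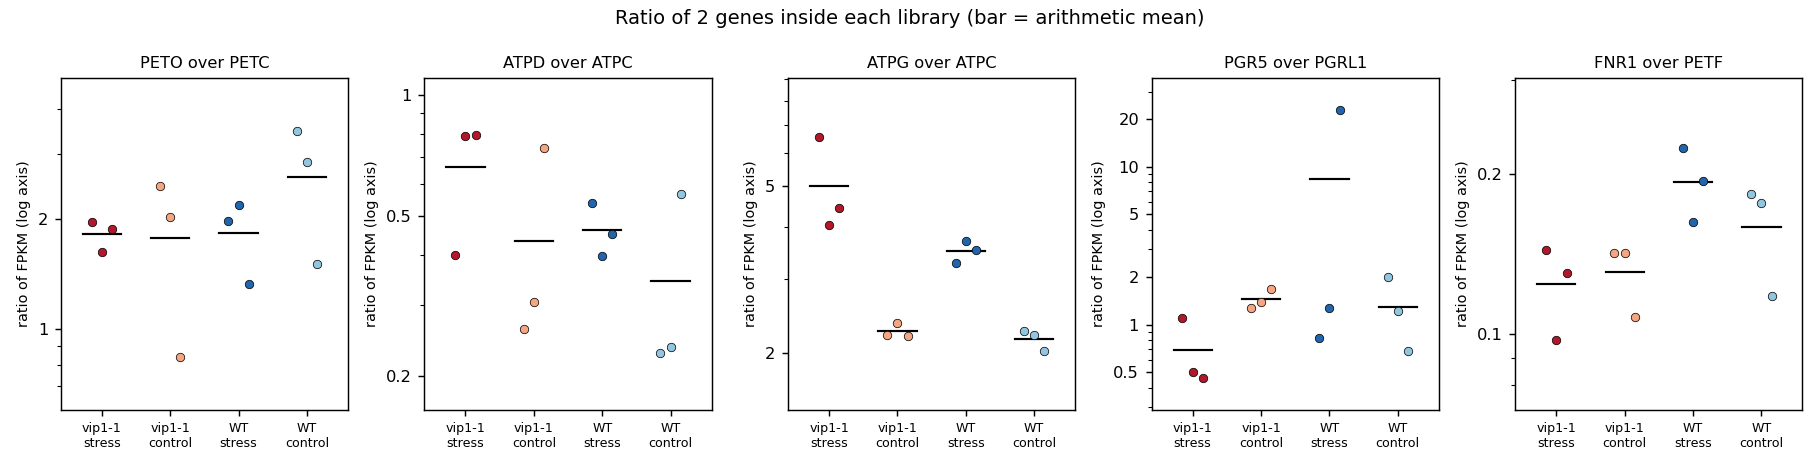
Ratio of deposited FPKM of 5 gene pairs (log axis) in every library, by group, with a bar at the mean of 3 libraries. The ratio of ATPG to ATPC lies at 3.27 or above in all stress libraries and at 2.36 or below in all control libraries.

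The order of levels was similar in the control groups. In vip1-1 control the mean scaled FPKM ran from PETF (2468 ± 225) through PETM (1867 ± 368), ATPG (1143 ± 318), ATPC (506 ± 128), PETO (379 ± 12.1), FNR1 (319 ± 27.4), PETC (260.1 ± 151), ATPD (198 ± 59.4) and PGR5 (96.1 ± 13.2) to PGRL1 (66.3 ± 4.06) (SD, n = 3 each). Wild-type control had the same order except that ATPD (224 ± 69.1) stood above PETC (202 ± 55.7), within their spread (SD, n = 3 each). Of the 9 neighbouring pairs in this order, 3 overlapped in their range over libraries in vip1-1 control and 7 in wild-type control. Under stress 7 of 9 neighbouring pairs overlapped in vip1-1 and 8 of 9 in wild-type. The mean of the highest gene was 30.7 times that of the lowest in vip1-1 stress, 37.2 times in vip1-1 control, 15.1 times in wild-type stress and 36.8 times in wild-type control.

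Between the genotypes none of the 10 genes was called, in control or under stress, by edgeR's quasi-likelihood test. In control, 0.0785% of all tested genes were called lower and 0.177% higher in vip1-1, and under stress 0.589% lower and 0.975% higher. At an unadjusted p under 0.05 there were 0 of the 10 genes in control, against 6.5% of all tested genes, and 3 under stress, against 15.3%. With limma voom and sample weights, 4 of the 10 were called lower in vip1-1 under stress, namely PGR5, ATPC, FNR1 and ATPG. That setting called 1841 of 15286 tested genes lower and 2209 higher there. In control the log2 fold changes of vip1-1 over wild-type ran from -0.49 for ATPC, which turned to 0.22 with library totals alone, to 0.46 for PGR5. Their 95% intervals reached from -1.12 to 0.14 for ATPC and from -1.09 to 2.01 for PGR5, so differences of these sizes are not excluded.

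Control libraries were matched by replicate number, which rests on a check of correlations, since no label states such a match. In each of the 3 matched pairs ATPC, ATPG, ATPD and PETO were lower in vip1-1 than in wild-type, and PGR5 was higher. ATPC, for example, had 567, 592 and 358 scaled FPKM in vip1-1 control and 765, 819 and 533 in wild-type control. How many of all tested genes kept the same direction in the 3 pairs was not counted. The check also does not settle which vip1-1 library belongs with which wild-type library. With the replicate number as a block, 2 of the 10 genes were at an unadjusted p under 0.05 in control, where 1094 of 15286 genes were. They were ATPC, at a log2 fold change of -0.50 (edgeR adjusted p 0.66), and ATPG, at -0.44 (edgeR adjusted p 0.63). With library totals alone the log2 fold changes of ATPG and ATPD turned to 0.29 and 0.33, as those of ATPC and PETO did.

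PETO and PGR5 were the genes whose control groups did not overlap. PETO had 389.7, 380.4 and 366 scaled FPKM in vip1-1 control and 518, 558 and 393 in wild-type control, a log2 fold change of -0.38 (SE 0.25, edgeR adjusted p 0.92). The gap between the nearest libraries of PETO is small, and its log2 fold change turned to 0.31 with library totals alone. PGR5 had 90.1, 86.9 and 111 in vip1-1 control, against 82.0, 72.3 and 54.8 in wild-type control (log2 fold change 0.46, edgeR adjusted p 0.96). Of all tested genes, 4.36% lay without overlap below and 8.18% above wild-type in control.

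Under stress the 3 genes at an unadjusted p under 0.05 were PETM, ATPC and PGR5. PETM averaged 489 ± 139 scaled FPKM in vip1-1 stress and 281 ± 105 in wild-type stress (SD, n = 3 each), and it was the only one of the 10 genes without overlap there. Its log2 fold change was 0.79 (95% interval 0.0099 to 1.57, edgeR adjusted p 0.32), where 17.7% of all tested genes lay without overlap above wild-type. ATPC averaged 46.2 ± 12.1 in vip1-1 stress and 75.5 ± 15.9 in wild-type stress (SD, n = 3 each), a log2 fold change of -0.71 (95% interval -1.34 to -0.080, edgeR adjusted p 0.26).

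PGR5 had the lowest log2 fold change under stress, -2.45 (95% interval -4.08 to -0.81, edgeR adjusted p 0.14), and this rests on wild-type stress replicate 3. Without that library it was -0.55, with an edgeR adjusted p of 0.65. Averaged over conditions, none of the 10 genes was called, against 0.654% of all tested genes lower and 1.29% higher. ATPC was the only one at an unadjusted p under 0.05, with a log2 fold change of -0.60 (edgeR adjusted p 0.19) that turned to 0.030 with library totals alone. Of all tested genes 14.2% were at an unadjusted p under 0.05 in this contrast. With the replicate block 3 of the 10 were at an unadjusted p under 0.05, against 2168 of 15286 tested genes. They were ATPC, ATPG and PETM (edgeR adjusted p 0.087 to 0.23). Without the block DESeq2 called ATPC lower at an adjusted p of 0.027, where it called 449 of all tested genes lower and 528 higher.

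**Figure D4:**
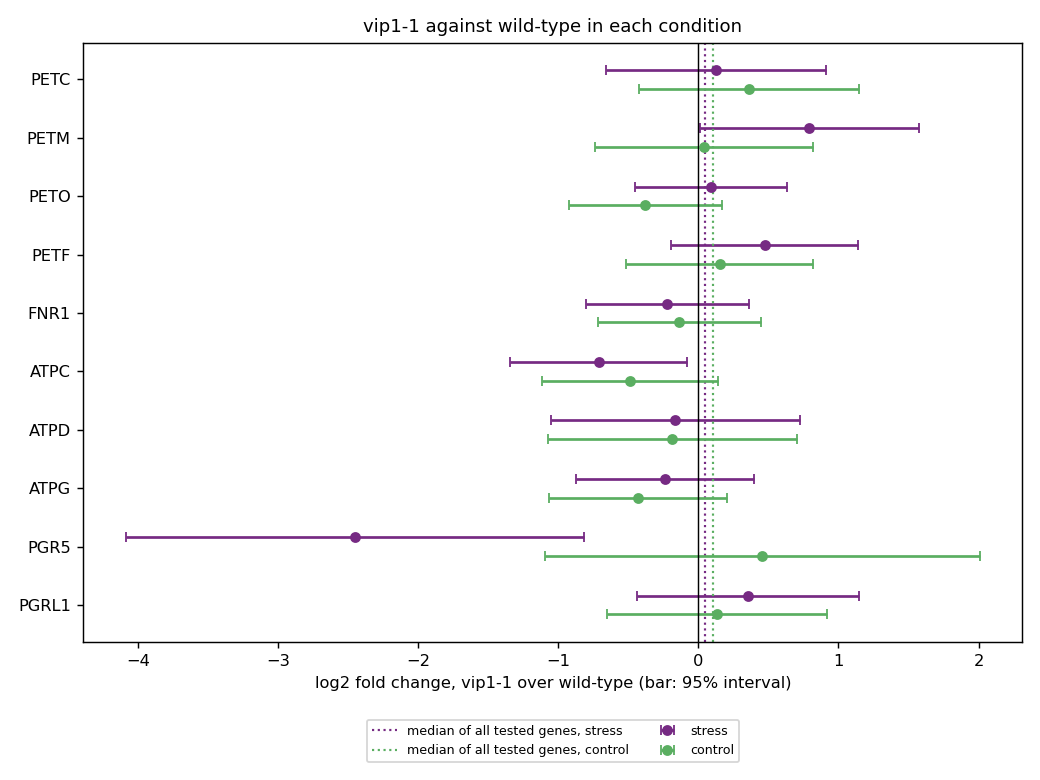
Log2 fold change of vip1-1 over wild-type for each gene (x axis) under stress and in control, with 95% intervals from the edgeR fit and dotted lines at the median of all tested genes. The intervals that leave out 0 are those of PETM, ATPC and PGR5 under stress, and none of the 10 genes passes the adjusted threshold.

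Whether the genotypes responded differently to stress was tested as the vip1-1 response minus the wild-type response. A difference was called for 0 of the 10 genes by edgeR's quasi-likelihood test, against 0.00654% of all tested genes lower and 0.0327% higher. At an unadjusted p under 0.05 there was 1, PGR5, against 8% of all tested genes. Its difference was -2.91 on the log2 scale (SE 1.02, edgeR adjusted p 0.52). Without wild-type stress replicate 3 the PGR5 value was -1.04 (edgeR adjusted p 0.73). For the other 9 genes the difference ran from -0.24 for PETC to 0.75 for PETM. DESeq2 and limma voom also called 0 of the 10, against 1.45% of all tested genes with DESeq2 and 3.57% with voom. DESeq2 gave no adjusted p for PGR5. The widest of the 95% intervals among those 9 reached from -1.24 to 1.28, for ATPD.

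Among the controls, replicate 3 stood apart from replicates 1 and 2 in the balance of these genes, and similarly in both genotypes. PETC in replicate 3 was above the mean of replicates 1 and 2 by 1.33 on the log2 scale in vip1-1 control and by 0.59 in wild-type control. ATPD was above it by 0.68 in vip1-1 control and 0.72 in wild-type control. Other subunits of the same complexes went the other way.

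ATPG lay below that mean, at -0.75 in vip1-1 control and -0.72 in wild-type control, and ATPC at -0.69 in vip1-1 control and -0.57 in wild-type control. PETM lay at -0.50 in vip1-1 control and -0.89 in wild-type control. Of the 10 genes, 8 had the same sign in both genotypes, 3 higher and 5 lower in replicate 3. These values are a description of single libraries and have no test. The share of all tested genes with the same sign was not counted. Over all 15286 tested genes, the departures of the 2 control replicate 3 libraries from their group means correlated at 0.48. The shift was therefore not particular to the 10 genes. Without both replicate 3 controls, 9 of the 10 genes were called lower under stress in each genotype by the edgeR test. PGR5 was the gene not called in either. Of the 15265 genes then tested, 1922 were called lower in vip1-1 and 2425 in wild-type.

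**Figure D5:**
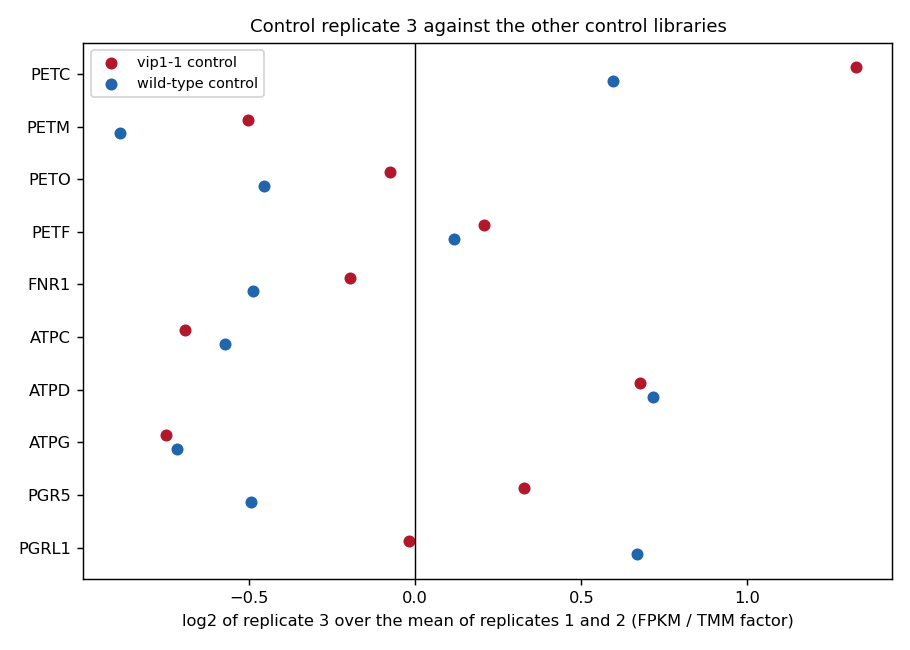
Log2 ratio of control replicate 3 to the mean of control replicates 1 and 2 for each gene (x axis, from FPKM divided by the TMM factor), in vip1-1 and in wild-type. PETC and ATPD lie above 0 and PETM, ATPC and ATPG below 0 in both genotypes.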

How the data were processed

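RNA of 12 libraries was compared in 4 groups taken from the sample titles. The authors deposited a table of whole-number counts per gene and a table of FPKM values for the same IDs, 1 column per library, tied to samples by the short names in the labels. HISAT2 and StringTie are named, without versions, per the submitters' processing notes. What each did, the genome build, the gene models and whether counting used strand are not given in the sources used here; the library kit marks strand. The 10 genes' ratio of count to deposited FPKM, divided by the library total, varied by at most 0.473% between libraries, so FPKM was scaled to total counts.

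The tests ran in R 4.3.3 on counts through edgeR 4.0.16: filterByExpr by group, TMM scaling, a group-means model over 12 libraries with robust quasi-likelihood dispersions, and Benjamini-Hochberg adjustment over all 15286 genes, called under 0.05. The genotype contrast averaged over conditions and the difference of responses came from the same model. SE is the absolute log2 fold change over the square root of F, and 95% intervals use the fit's degrees of freedom. Code was tested on simulated data. Alternatives used DESeq2 1.42.0, limma 3.58.1 (voom with sample weights, and log2 of FPKM + 1), other scalings and filters, only the groups compared, a replicate block, and leaving out libraries.

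The genes, lists and ratios were chosen with earlier results of these data known, and all 10 genes are named by rule. A list of 18 other pathway IDs was to be used only where the reference table (RefSeq, Chlamydomonas_reinhardtii_v5.5) named them; it named 0, and 0 of the 10 genes, so that list was dropped, and the level of the mutated gene is not reported.

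Replicate libraries differed beyond sampling noise (chi-square per degree of freedom of 12.8 or more). Between the control groups, libraries with equal numbers departed from their group means with correlations of 0.21, 0.26 and 0.48, over the 0.1 required, so numbers were taken to pair the controls on this check alone. Every other group pair had at least 1 correlation under 0.1. In vip1-1 control, replicates 1 and 2 lay close together (chi-square per degree of freedom 12.8), and replicate 3 stood apart from both (213 and 207). Replicates 1 and 2 thus depart from the group mean in similar ways. The correlations therefore cannot show which of them belongs with which wild-type control library, and other matches were not tested. The departures of 3 libraries from their own mean depend on each other, so the 3 correlations are not separate checks. In wild-type control it was replicate 1 that stood apart from replicates 2 and 3 (594 and 877), against 165 between replicates 2 and 3.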

Additional observations from a re-analysis of the deposited data

How the results depend on the processing

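Over 455 alternative values of the 19 stress responses called for single genes, 436 stayed called, 19 were no longer called and 0 changed sign. The count called lower in vip1-1 was 5 with library totals alone, where 508 of 15286 tested genes were called lower. It was 8 to 10 with libraries left out, and in wild-type it was 7 to 10 over all alternatives. Ranges of calls among all genes are given below. With the replicate number as a block, 10 genes were called lower in vip1-1 (1683 of all 15286 genes) and 9 in wild-type (1842 of all genes). In each genotype contrast and in the difference of responses 0 were called, so the block changed no call among these genes. It moved the count at an unadjusted p under 0.05 to 2 (0 without it) in control, where 1094 of all genes were. In the averaged contrast that count moved to 3 (1 without it), where 2168 of all genes were. Between genotypes, voom with sample weights called 4 genes lower under stress, where it called 1841 of all 15286 genes lower and 2209 higher. Averaged over conditions it called 2 lower, against 1145 of all genes lower and 1637 higher. DESeq2 called 1 lower averaged, against 449 of all genes lower and 528 higher. The cause was not tested. In wild-type PGR5 turned to -1.56 with voom, -0.37 with limma on FPKM, -0.082 with the replicate block, and ranged from -1.68 to 0.77 with libraries left out. With library totals alone and with limma on FPKM, PETO in control turned to 0.31 and 0.47 and the averaged ATPC to 0.030 and 0.11. Library totals alone also moved the median of all genes by 0.58 in control and 0.56 under stress, and split the calls 21 higher and 4 lower in control (27 and 12 otherwise), 61 and 7 under stress (149 and 90) and 158 and 17 averaged (197 and 100).

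Over all alternatives, calls among all genes ran from 904 to 10206 in vip1-1 (3544 as reported), 1035 to 6263 in wild-type (3979), 0 to 849 between genotypes in control (39), 53 to 4050 under stress (239), 127 to 2782 averaged (297) and 0 to 545 for the difference of responses (6). Among ratios, with libraries left out, the log2 stress effect ran from -0.56 to 0.0056 for PETO over PETC, from -0.70 to 0.50 for PGR5 over PGRL1, from 0.80 to 0.98 for ATPG over ATPC, from 0.48 to 1.07 for ATPD over ATPC and from -0.061 to 0.19 for FNR1 over PETF. Without both replicate 3 controls PGR5 over PGRL1 was -0.088 and FNR1 over PETF -0.061. Without wild-type control replicate 3, ATPG over ATPC passed for stress at 0.89 and FNR1 over PETF for genotype at -0.56 (exact permutation adjusted p 0.025 each). ATPG over ATPC had the same exact permutation p of 0.005 with that library, at a log2 effect of 0.91. Its adjusted p fell only because FNR1 over PETF also reached an exact permutation p of 0.005. With libraries left out, FNR1 over PETF ran from -0.56 to -0.38 for genotype. With exchanges only between same-numbered libraries (replicate block, 64 arrangements), ATPG over ATPC gave an exact permutation p of 0.031 for stress. That is the smallest possible there, at an adjusted p of 0.156. This block pairs stress with control libraries by number, a pairing that did not meet the check on replicate numbers.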

Other observations

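Genes near PGR5 were looked at after its value in wild-type stress replicate 3 had been seen, taking gene order from the RefSeq table of Chlamydomonas_reinhardtii_v5.5. In that library 2 genes lying 3 and 4 places to one side of PGR5 were also above the other libraries of the group. Cre05.g242500 had 41.2, 48.6 and 205 CPM in wild-type stress replicates 1 to 3, against 195, 143 and 98.0 CPM in wild-type control. Cre05.g242550 had 6.83, 7.15 and 28.3 CPM in wild-type stress, against 43.4, 42.7 and 25.7 CPM in wild-type control. The 2 genes in between had at most 0.844 CPM in any wild-type library. The next gene on the other side, Cre05.g242350, had 77.5, 97.0 and 69.4 CPM in wild-type stress and 130, 152 and 63.8 CPM in wild-type control, with replicate 3 the lowest of each group. Beyond Cre05.g242350 on that side, Cre05.g242300 had 122, 133 and 137 CPM in wild-type stress replicates 1 to 3. Cre05.g242301 had 7.83, 5.55 and 3.57 CPM there, and Cre05.g242200 had 5.61, 5.18 and 8.73 CPM. The files do not pair these IDs with names, and no test was made.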
